A study of Homo sapiens with 17 samples.

Results

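The 9 genes described here mark intestinal epithelium. They were chosen by name as 3 transcription factors (CDX1, CDX2 and HNF4A), 4 epithelial products (VIL1, CDH17, GPA33 and LGALS4) and 2 goblet cell products (MUC2 and TFF3). All 9 were among the 19141 genes counted. Levels were followed in YB5 cells, a line derived from the SW48 colon cancer cells of a human tumor that carries a single silenced copy of a GFP reporter behind a methylated viral promoter. YB5 is an established line, so every library came from the same cell population. Cells received toyocamycin, an adenosine analog, at 250 nM, or its vehicle DMSO, and polyA RNA was sequenced from both ends. Each arm had 2 libraries of 2 h, single ones of 24 h and of 48 h, and 3 of the last time point, which is 72 h in the sample labels and 96 h in the study's methods. At 10 h there were 1 DMSO library and 2 toyocamycin libraries. The comparisons ask how gene expression in these cells moved with time on the drug.

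In the gut, CDX1 and CDX2 are homeodomain factors that set and keep intestinal fate, and HNF4A is a nuclear receptor that drives genes of absorptive cells in gut, liver and kidney. These factors act upstream of the products that build the brush border, the cell contacts and the mucus layer. Colon cancer lines keep this program to very different degrees.

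The 17 libraries held 8735465 to 22121364 counts each. Replicate 2 of toyocamycin at 10 h stood apart: it had the lowest total and yet a count in 18654 genes, against 13434 to 16549 in the other 16 libraries. It is therefore left out in turn in the tests at 10 h, but it is kept in the correlations over all 17 libraries. The labels name 2 batches, and batch 2 held only replicate 2 of each arm at 2 h and at 10 h. The labelled colorectal epithelial origin was checked with EPCAM, CDH1, KRT8, KRT18 and KRT20 beside the members. In the DMSO libraries of the last time point, EPCAM had 272 ± 17.9 CPM (counts scaled to library size), CDH1 382 ± 16.4, KRT18 1215 ± 71.8 and KRT8 4293 ± 384 CPM (SD, n = 3), while KRT20, a keratin of mature colonocytes, had 0 or 1 count in every DMSO library. Because RNA of whole cultures was measured, fewer cells with a transcript and less of it per cell cannot be told apart.

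The starts of 4 of these genes are shown because their transcripts moved furthest or most differently from one another on the drug. RefSeq (GRCh38.p14) gave promoter windows for 5 of the 9 genes, and CDX1, VIL1, CDH17 and TFF3 had no entry. The windows below hold the 250 bases before a start, 5′ to 3′ on the gene's strand. Capitals mark TTTAT or its reverse complement ATAAA, the core that CDX proteins recognize, CAAAG or CTTTG, part of the site that HNF4 proteins bind, and TATAA or TTATA, as in a TATA box. The first and the third of these motifs can overlap. CDX2 was read at chr13:27969316-27969565 on the minus strand, LGALS4 at chr19:38812946-38813195 on the minus strand, MUC2 at chr11:1074624-1074873 on the plus strand, and HNF4A at the upstream of its listed starts, chr20:44355449-44355698 on the plus strand.
CDX2: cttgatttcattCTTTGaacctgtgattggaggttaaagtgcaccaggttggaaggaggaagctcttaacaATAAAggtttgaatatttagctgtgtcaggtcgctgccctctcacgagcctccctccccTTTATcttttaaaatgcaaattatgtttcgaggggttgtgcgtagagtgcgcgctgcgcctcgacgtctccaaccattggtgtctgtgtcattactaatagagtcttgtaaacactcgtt
HNF4A: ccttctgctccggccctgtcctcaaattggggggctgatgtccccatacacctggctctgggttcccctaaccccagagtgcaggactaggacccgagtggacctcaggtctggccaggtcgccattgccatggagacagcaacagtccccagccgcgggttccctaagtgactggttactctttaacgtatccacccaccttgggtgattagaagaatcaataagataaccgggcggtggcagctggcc
LGALS4: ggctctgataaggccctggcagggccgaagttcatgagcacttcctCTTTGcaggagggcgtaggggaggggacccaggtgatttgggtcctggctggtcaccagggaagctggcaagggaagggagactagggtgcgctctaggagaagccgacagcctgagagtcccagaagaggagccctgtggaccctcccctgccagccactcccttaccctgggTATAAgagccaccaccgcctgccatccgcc
MUC2: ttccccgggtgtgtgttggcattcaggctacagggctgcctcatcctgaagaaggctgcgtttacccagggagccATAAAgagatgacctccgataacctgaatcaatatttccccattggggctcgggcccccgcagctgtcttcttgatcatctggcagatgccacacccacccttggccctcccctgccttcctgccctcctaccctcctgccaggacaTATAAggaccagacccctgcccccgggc
The CDX2 window held 2 matches to the CDX core and the MUC2 window 1, and this core has a match in 32.7% of 35114 promoter windows of the same length. The CDX2 and LGALS4 windows each held 1 match to the HNF4 letters, present in 42.1% of windows. The LGALS4 and MUC2 windows each held 1 TATAA, present in 18.9% of windows, and the HNF4A window held 0 of the 3 motifs. CpG dinucleotides numbered 10 in the CDX2 window, 8 in that of HNF4A and 6 in each of the others, against a median of 11 over all windows. These matches describe the letters and say nothing of binding. The counts sum reads over each whole gene, so separate starts of a gene were not resolved.

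Without the drug, YB5 cells expressed the transcription factors CDX2 and HNF4A and little of the other 7 genes. Levels of different genes were compared as CPM per kilobase of exon (RPKM), over the 8 DMSO libraries. CDX2 (ENSG00000165556, chromosome 13, 27960918 to 27969315, minus strand) had a mean RPKM of 43.0 (range 16.1 to 80.7), above 95.2% of the genes tested. HNF4A (ENSG00000101076, chromosome 20, 44355699 to 44432845, plus strand) had a mean RPKM of 6.67 (4.40 to 8.56), above 70.1% of them. The ranges of these factors did not overlap, and HNF4A in turn lay above every other member in every DMSO library.

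The products lay far lower. CDH17, an intestinal cadherin (ENSG00000079112, chromosome 8, 94127162 to 94217303, minus strand), had a mean RPKM of 0.365 (0.231 to 0.623). VIL1, villin of the microvillus core (ENSG00000127831, chromosome 2, 218419121 to 218453295, plus strand), had 0.247 (0.0629 to 0.328). These ranges overlapped, so the order of CDH17 and VIL1 is within their spread. VIL1 overlaps USP37 on the other strand, and since the strand setting of the counting is not given in the sources used here, reads of these genes cannot be told apart.

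GPA33, the surface antigen A33 (ENSG00000143167, chromosome 1, 167052836 to 167166479, minus strand), had 0 to 9 counts per DMSO library, and it overlaps STYXL2 on the other strand. LGALS4, galectin-4 of the apical surface (ENSG00000171747, chromosome 19, 38801671 to 38812945, minus strand), summed to 7 counts over the 8 DMSO libraries. MUC2, the gel-forming mucin of goblet cells (ENSG00000198788, chromosome 11, 1074875 to 1110511, plus strand), also summed to 7 counts. Few counts thus stood behind these 3 genes in DMSO.

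CDX1 (ENSG00000113722, chromosome 5, 150166778 to 150184558, plus strand) and TFF3, the goblet cell trefoil peptide (ENSG00000160180, chromosome 21, 42311667 to 42315409, minus strand), had 0 counts in all 8 DMSO libraries. A count of 0 allows a level of up to 3 counts, which was 0.117 to 0.154 CPM in these libraries. Such limits cover counting error only, since the reads carried no identifiers that tell molecules from copies.

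**Figure D1:**
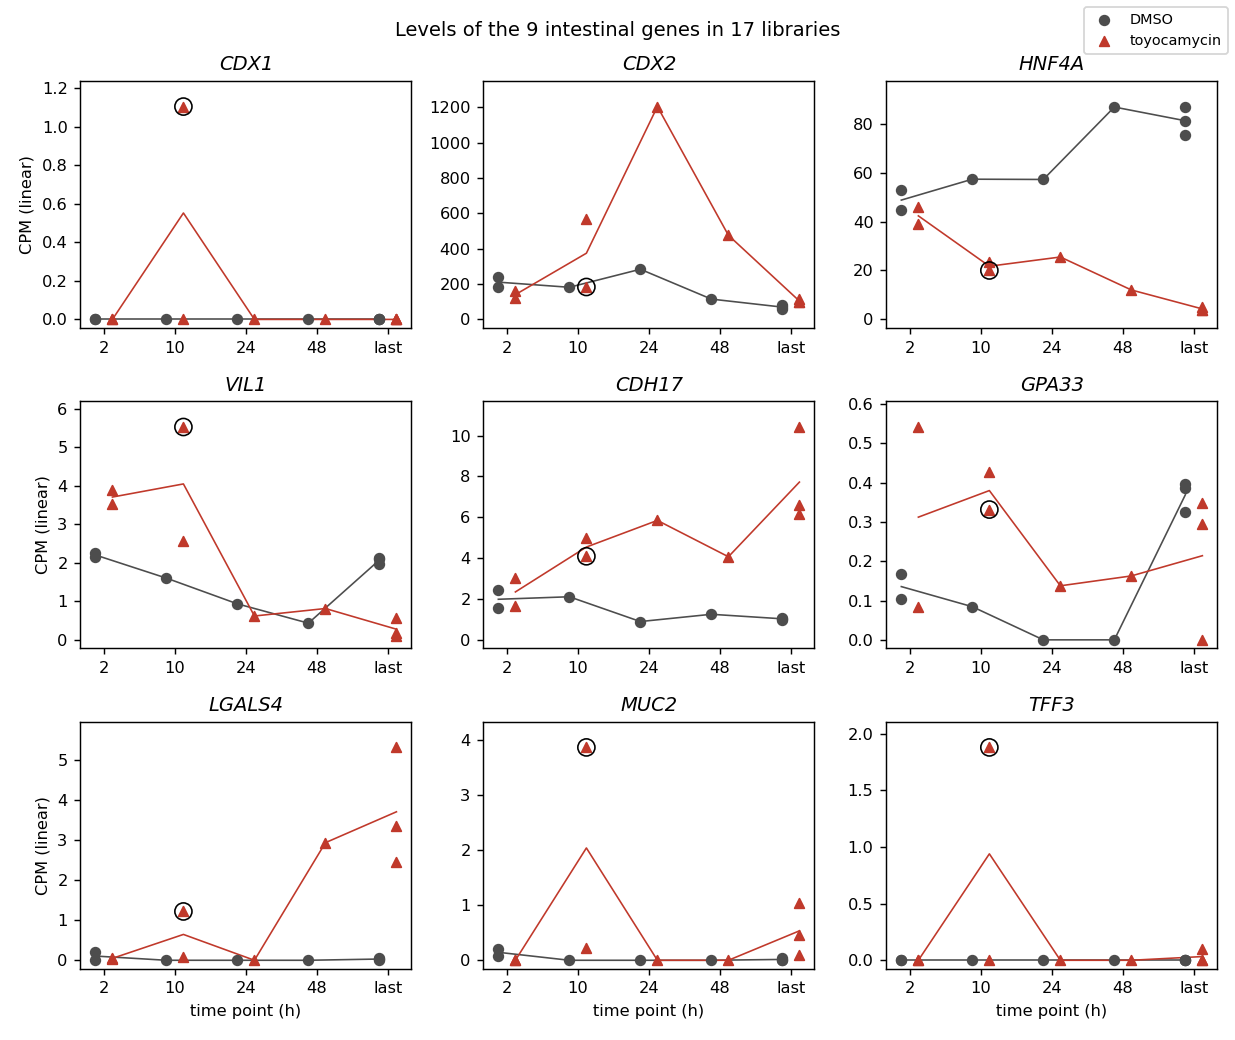
Level of each gene in CPM (linear axis, its own scale per panel) at each time point in 17 libraries. Each point is 1 library (circles DMSO, triangles toyocamycin), lines join the means, and the open ring marks replicate 2 of toyocamycin at 10 h. CDX2 on toyocamycin peaked at 1203 CPM at 24 h, HNF4A fell to 3.74 to 5.19 CPM at the last time point, and the ringed library holds nearly all counts of CDX1 and TFF3.

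At 2 h, 1 of the 7 members tested was lower on toyocamycin, CDX2, and 0 were higher, while CDX1 and TFF3 were below the filter on low counts. A member was called at an adjusted p under 0.1, a rule that also called 8.42% of 14491 genes lower and 0.518% higher. CDX2 had 238 and 183 CPM in the DMSO libraries and 158 and 122 CPM in the toyocamycin libraries. Both toyocamycin libraries lay below both DMSO libraries, as they did for 20.3% of all genes, and the log2 ratio was -0.59 within each of batch 1 and batch 2. The fitted log2 fold change was -0.59 (SE 0.195, n = 2 per arm, edgeR quasi-likelihood test, Benjamini-Hochberg adjusted p = 0.0997). This call sat at the edge of the threshold and was lost in 10 of 17 alternatives, over which the log2 fold change ranged from -0.79 to -0.39. It was lost without DMSO replicate 1 (-0.39, edgeR adjusted p = 0.383) or toyocamycin replicate 2 (-0.41, edgeR adjusted p = 0.476).

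HNF4A did not pass the test at 2 h (log2 fold change -0.20, SE 0.169, edgeR adjusted p = 0.644). VIL1 had 2.15 and 2.26 CPM in DMSO and 3.89 and 3.52 CPM on toyocamycin, so its arms did not overlap, as 16.7% of all genes did not in that direction. Its log2 fold change of 0.75 (SE 0.340) missed the threshold (edgeR adjusted p = 0.302). With pairs blocked by replicate number, which at 2 h is the labelled batch, VIL1 was called higher (0.74, edgeR adjusted p = 0.0517) and CDX2 stayed lower (-0.60, edgeR adjusted p = 7.9e-07). Only the libraries of 2 h entered that fit. With batch as a term in the fit of all 17 libraries, neither gene was called at 2 h. Neither CDH17 (0.23, SE 0.376) nor GPA33 (1.04, SE 0.983) passed, and LGALS4 and MUC2 had 5 counts or fewer in each library of 2 h.

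At 10 h, HNF4A was lower in both toyocamycin libraries, and CDX2, CDH17, LGALS4 and MUC2 were called higher among the 8 members tested. The same rule called 24.4% of 16521 genes lower and 20.4% higher. HNF4A had 57.3 CPM in the DMSO library and 23.5 and 20.01 CPM in the toyocamycin libraries. Its log2 fold change was -1.39 (SE 0.225, edgeR adjusted p = 0.000193), and it was -1.52 in batch 2 alone, in which the DMSO library also lay.

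The rises at 10 h were uneven between the toyocamycin libraries. CDX2 had 182 CPM in DMSO, 565 CPM in replicate 1 and 183 CPM in replicate 2, so its fitted log2 fold change of 1.04 (SE 0.457, edgeR adjusted p = 0.0863) rested on replicate 1. Without replicate 1 it was 0.01 (edgeR adjusted p = 0.973), the log2 ratio within batch 2 as well. CDH17 was alike in both, with 2.11 CPM in DMSO and 4.997 and 4.09 CPM on the drug (1.11, SE 0.484, edgeR adjusted p = 0.0845). Its call too was lost without replicate 1 (0.95, edgeR adjusted p = 0.133), and relative to the mitochondrially encoded genes 0 members were higher at 10 h.

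LGALS4 had 0 counts in DMSO, 1 in replicate 1 and 11 in replicate 2, and MUC2 had 0, 3 and 35. Both genes passed the filter on low counts only through toyocamycin libraries. CDX1 had 10 counts and TFF3 17 counts in replicate 2 and 0 in both other libraries of 10 h. Replicate 2, the library with counts in the most genes, thus held most or all of the counts of these 4 genes. Without it, 2 members were called higher, CDX2 and CDH17, and neither LGALS4 (edgeR adjusted p = 0.372) nor MUC2 (edgeR adjusted p = 0.159) passed. VIL1 reached 5.53 CPM in that library against 2.57 CPM in replicate 1 and 1.60 CPM in DMSO, and was not called (1.32, edgeR adjusted p = 0.129). It gained a call in 5 of 11 alternatives, among them the one without replicate 1 (1.78, edgeR adjusted p = 0.00712).

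At 24 h and 48 h each arm had 1 library, so these differences have no replicate check and carry no p-value. CDX2 reached its highest level of the series on toyocamycin at 24 h, 1203 CPM against 284 CPM in DMSO, and had 476 against 115 CPM at 48 h. Its fitted log2 fold changes were 2.10 and 2.07. These values depended on the scaling: relative to the mitochondrially encoded genes they were -0.17 and 0.23, and by library size alone 1.08 and 1.46. HNF4A had 25.5 against 57.2 CPM at 24 h and 12.0 against 86.8 CPM at 48 h, log2 fold changes of -1.15 and -2.82.

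CDH17 had 5.85 against 0.896 CPM at 24 h and 4.07 against 1.25 CPM at 48 h, log2 fold changes of 2.71 and 1.72, which were 0.45 and -0.12 relative to the mitochondrially encoded genes. LGALS4 had 0 counts in both libraries of 24 h, and at 48 h it had 36 counts on toyocamycin and 0 in DMSO, at least 20.3-fold higher when the DMSO library is set to 3 counts. GPA33 had 2 counts on toyocamycin and 0 in DMSO at both times, which is under that floor. VIL1 had 9 against 24 counts at 24 h and 10 against 9 counts at 48 h. A log2 fold change past 1 in size was taken as a difference here, which held for 27.8% of genes downward and 29.7% upward at 24 h, and for 29.9% and 38.1% at 48 h.

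At the last time point, 6 of the 7 members tested differed between the arms, and they went both ways. HNF4A and VIL1 were lower, and CDX2, CDH17, LGALS4 and MUC2 were higher. LGALS4 and MUC2 had 5 counts or fewer in each DMSO library and passed the filter on low counts only through toyocamycin libraries. They could thus be called higher but not lower. With 3 libraries per arm, the test called 41.9% of all genes lower and 47% higher, so a call by itself was common at this time. The median log2 fold change was 0.61 over the 7 members and 0.18 over all genes tested.

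HNF4A showed the strongest fall. Its DMSO libraries had 87.0, 81.2 and 75.5 CPM and its toyocamycin libraries 3.93, 5.19 and 3.74 CPM. The mean went from 81.2 ± 5.78 to 4.29 ± 0.788 CPM (SD, n = 3 each), a log2 fold change of -4.21 (SE 0.172, edgeR quasi-likelihood test, Benjamini-Hochberg adjusted p = 6.01e-12) or 18.5-fold lower. The fall held in all 19 alternatives, which ranged from -5.33 to -3.89.

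VIL1 had 40, 46 and 49 counts in the DMSO libraries and 1, 6 and 2 counts in the toyocamycin libraries. It went from 2.07 ± 0.0812 to 0.276 ± 0.245 CPM, a log2 fold change of -2.84 (SE 0.450, edgeR adjusted p = 2.51e-05). Villin and HNF4A were thus both lower at this time, although VIL1 had lain above DMSO at 2 h without passing the test. At 48 h, with a single library per arm, VIL1 had 10 against 9 counts, while HNF4A was at -2.82.

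CDX2 stayed expressed. It had 81.3, 70.8 and 56.6 CPM in DMSO and 96.9, 114 and 101 CPM on toyocamycin, arms that did not overlap, as 45.8% of genes did not in that direction. Its log2 fold change was 0.61 (SE 0.162, edgeR adjusted p = 0.00242). The sign of this small rise depended on the scaling, since it was 0.01 (edgeR adjusted p = 0.961) by library size alone and -0.52 (edgeR adjusted p = 0.285) relative to the mitochondrially encoded genes. The same change of scaling moved the median over all genes from 0.18 to -0.89, and DESeq2's size factors and library size alone moved it to 0.50 and -0.42.

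CDH17, LGALS4 and MUC2 rose from low levels. CDH17 had 1.04, 0.975 and 1.07 CPM in DMSO and 10.4, 6.58 and 6.17 CPM on toyocamycin, a log2 fold change of 2.93 (SE 0.319, edgeR adjusted p = 4.06e-07) that ranged from 1.89 to 3.26 over 19 alternatives. LGALS4 had 1, 0 and 1 counts in the DMSO libraries and 25, 36 and 61 counts in the toyocamycin libraries. Each toyocamycin library thus held more galectin-4 counts than all 8 DMSO libraries together.

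The fit gave LGALS4, which entered the test only through its toyocamycin counts, a log2 fold change of 6.66 (SE 0.709, edgeR adjusted p = 3.06e-07). Scaled for depth, its summed counts stood in a ratio of 122 with a 95% counting interval of 33.1 to 1020. MUC2 had 0, 1 and 0 counts in DMSO and 1, 5 and 12 counts on toyocamycin, a log2 fold change of 4.67 (SE 1.17, edgeR adjusted p = 0.00174) and a ratio of 36.0 with an interval of 5.69 to 1501. The size of the MUC2 rise is thus known only roughly, and without toyocamycin replicate 3 the gene fell below the filter on low counts. GPA33 had 8, 7 and 9 counts in DMSO and 3, 0 and 4 on toyocamycin and did not pass the test (-0.73, SE 0.836, edgeR adjusted p = 0.420), except relative to the mitochondrially encoded genes (-1.74, edgeR adjusted p = 0.069). CDX1 had 0 counts in all 6 libraries of the last time point, and TFF3 had 1 count in 1 toyocamycin library.

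**Figure D2:**
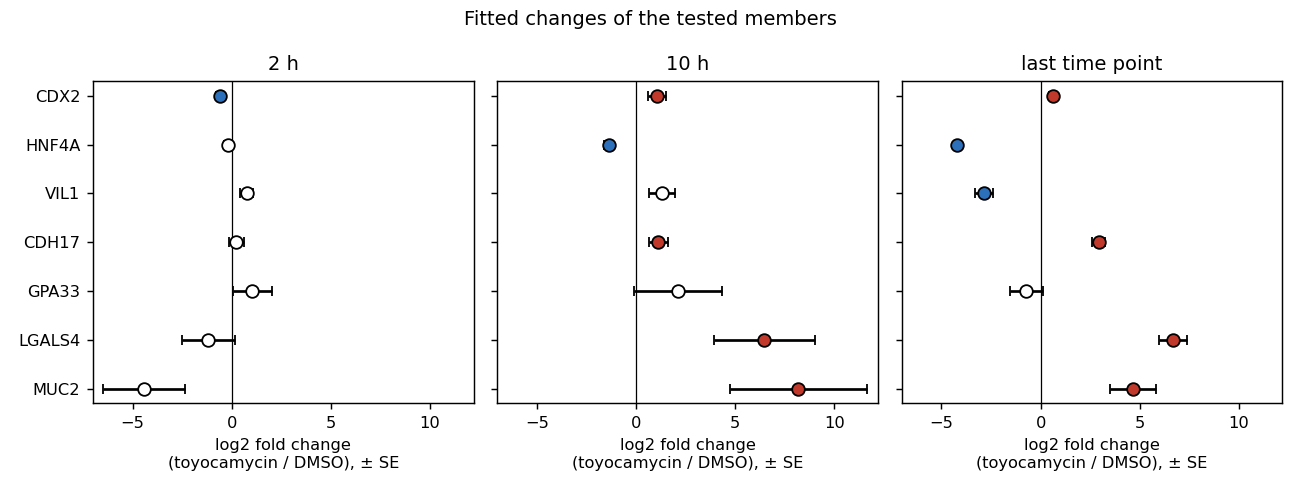
Fitted log2 fold change of toyocamycin over DMSO with its standard error (horizontal axis, same range in each panel) for the 7 members tested at all of 2 h, 10 h and the last time point (TFF3, tested at 10 h, is not drawn). Blue points were called lower, red points higher and open points not called. HNF4A moved from -0.20 to -4.21 while LGALS4 reached 6.66 at the last time point.

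The order of the members on toyocamycin at the last time point differed from that in DMSO. By mean RPKM it ran CDX2 with 29.5, CDH17 with 1.99, LGALS4 with 1.66 and HNF4A with 0.422, followed by GPA33 with 0.0727, MUC2 with 0.0422, VIL1 with 0.0401 and TFF3 with 0.0355. The ranges of CDH17 (1.59 to 2.69) and LGALS4 (1.10 to 2.38) overlapped, and both lay above that of HNF4A (0.368 to 0.510). The 4 lowest of these 8 genes had 12 counts or fewer in each library and cannot be ordered.

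The CDX2 and HNF4A counts of a library can be divided by one another, which removes any choice of scaling. In DMSO the ratio of CDX2 to HNF4A counts was 4.51 and 4.10 at 2 h and 3.17 at 10 h. It then went from 4.96 at 24 h to 1.32 at 48 h. The ratio was 0.935, 0.872 and 0.750 in the DMSO libraries of the last time point. On toyocamycin it was 3.46 and 3.14 at 2 h and 24.1 and 9.17 at 10 h, reached 47.2 at 24 h and 39.5 at 48 h, and was 24.7, 22.0 and 26.9 at the last time point.

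From 10 h on, every toyocamycin library thus lay above every DMSO library in this ratio, and at 2 h both lay below. At the last time point the log2 ratio was 4.61 ± 0.15 on toyocamycin and -0.24 ± 0.16 in DMSO (SD, n = 3 each), a 28.8-fold difference (exact permutation test, two-sided p = 0.1, the smallest p that 3 against 3 libraries allow).

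**Figure D3:**
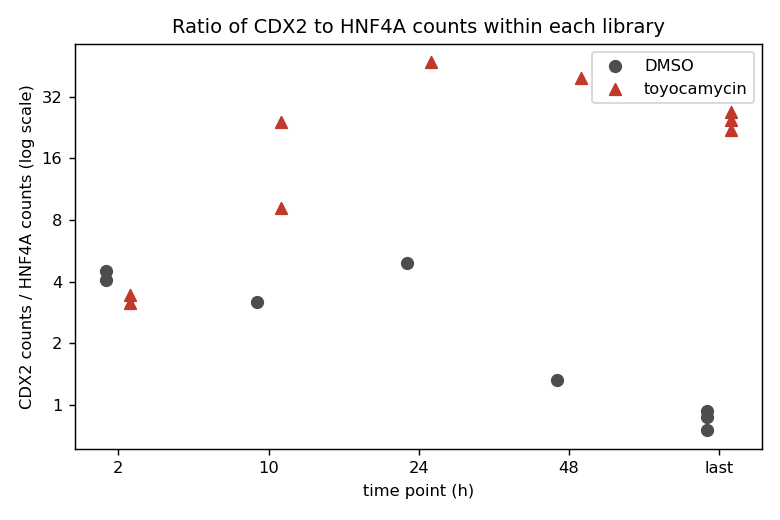
Ratio of CDX2 to HNF4A counts (log axis) in each of the 17 libraries by time point, circles DMSO and triangles toyocamycin. The arms lie close at 2 h, and at the last time point the DMSO libraries lie between 0.750 and 0.935 and the toyocamycin libraries between 22.0 and 26.9.

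The effect of toyocamycin was not the same at both ends of the series. The log2 fold change at the last time point minus that at 2 h passed the test in 6 of the 7 members tested. It was lower in 2 and higher in 4, in a comparison that called 38.1% of genes lower and 38% higher. LGALS4 and MUC2, both among the higher, had 5 counts or fewer in each library of 2 h. CDX2 moved from -0.59 to 0.61 (difference 1.20, SE 0.254) and VIL1 from 0.75 to -2.84 (difference -3.59, SE 0.573), though VIL1 had not passed at 2 h. Relative to the mitochondrially encoded genes, the CDX2 difference was 0.25 and its call was lost (edgeR adjusted p = 0.814). For HNF4A and CDH17, neither of which passed at 2 h, the differences were -4.01 (SE 0.242) and 2.69 (SE 0.496).

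The DMSO cultures moved too. Between 2 h and the last time point without drug, CDX2 fell by 1.60 on the log2 scale (SE 0.176, edgeR adjusted p = 2.94e-05) and HNF4A rose by 0.73 (SE 0.157, edgeR adjusted p = 0.0056). In that comparison 11.4% of genes were called lower and 10.2% higher. The DMSO libraries of the last time point were all batch 1, and within batch 1 the log2 ratios were -1.78 for CDX2 and 0.62 for HNF4A. The other 5 members tested were not called, CDH17 being closest (-0.93, SE 0.368, edgeR adjusted p = 0.104).

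Genes whose log2 CPM followed the transcription factors most closely over the 17 libraries were sought among 7808 others. For CDX2 they were CUX1 with Pearson's r = 0.912, CDH24 with 0.910 and PANX2 with 0.910. For HNF4A they were PACSIN2 with 0.989, MICAL3 with 0.988 and STAU1 with 0.987. These libraries share treatment, time and depth, so the values are a description. CDX1 was too low to be compared. Between CDX2 and HNF4A themselves r was -0.09.

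The other genes of the intestinal and epithelial program were read from 5 lists of 107 genes. At the last time point, 23 of the 74 tested were lower and 42 higher, beside 41.9% and 47% of all genes. The median of their log2 fold changes was 2.45 (1.89 with arms at 3 counts or fewer set to that floor). Genes almost without counts in DMSO passed the filter on low counts only through toyocamycin libraries, so they could be called higher but not lower. GATA5 had 1 count or fewer in each DMSO library and 7 to 9 on toyocamycin at this time. The filter, which was the same for all genes, thus weighs these counts and medians upward. Of 19 other intestinal transcription factors tested, 3 were lower and 13 higher. FOXA1, a pioneer factor of endoderm, went from 5.84 ± 0.958 to 594 ± 114 CPM (SD, n = 3 each, log2 fold change 6.70, edgeR adjusted p = 9.02e-13). PRDM1, a repressor active in the fetal gut, and KLF5, a factor of crypt cells, rose by 5.83 and 3.69.

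Lower with HNF4A were EHF (-3.87) and GRHL2 (-3.60), both epithelial factors. GRHL2 had already been lower at 10 h (-2.25). At 2 h, 4 of the 19 factors were lower and 0 higher, beside 8.42% and 0.518% of all genes. ELF3 (-1.25) and KLF4 (-1.08), both fast-responding epithelial factors, were lower by the most.

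Of 22 absorptive cell and brush border genes tested, 7 were lower and 12 higher at the last time point, so this list did not move as one. CDHR5, a microvillus protocadherin, went from 0.0783 ± 0.0308 to 42.5 ± 4.51 CPM, and the aminopeptidase ANPEP rose by 6.88 on the log2 scale. The peptidase DPP4 (-3.95), the actin bundler PLS1 (-3.03) and the scaffold USH1C (-2.11) were lower. Of 12 goblet and secretory genes tested besides MUC2 and TFF3, 9 were higher and 1 lower, with FCGBP at 3.94 and GALNT12 at -5.35. Over all genes, 47% were higher and 41.9% lower at this time.

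Among 11 stem, Paneth and enteroendocrine genes tested, 8 were higher and 2 lower at the last time point, beside 47% and 41.9% of all genes. The stem cell receptor LGR5 was at 2.77 and PROM1 at -4.37. The median of this list was 3.41, or 2.32 with arms at 3 counts or fewer set to that floor. All 10 general epithelial genes were lower, with a median of -3.00. They include the simple epithelial keratins KRT19 (-5.97), KRT18 (-5.09) and KRT8 (-3.97). In the comparison at 10 h, 24.4% of all genes tested were called lower and 20.4% higher. At 10 h KRT8 (1.85) and KRT18 (1.61) had been called higher, and ESRP2 (-2.59), ESRP1 (-2.50) and LGR5 (-0.77) lower. Of the 10 general epithelial genes, 3 were lower and 6 higher at that time. Over the 5 lists, 11 of the 89 genes tested were lower and 26 higher. Leaving out either toyocamycin library of 10 h left a single library in each arm. The counts then differed, and no share over all genes was computed for them.

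**Figure D4:**
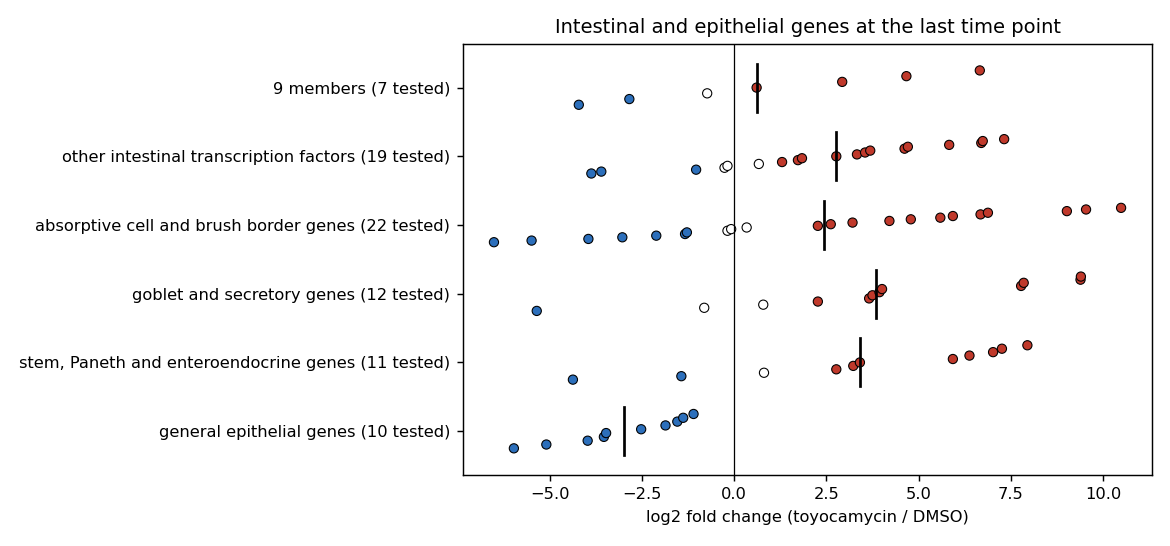
Log2 fold change of toyocamycin over DMSO at the last time point for the members and for the genes tested on 5 other lists (rows). Each point is 1 gene, blue called lower, red called higher and open not called, and the bar is the median of the row. The 10 general epithelial genes all lie below 0, while the other rows hold genes on both sides.

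Markers of other cell types moved as well, and their part in the results above was not tested. Over all DMSO libraries, 8 mesenchymal markers summed to 2.02 to 14.4 CPM, with 0 to 3 of them at 0 counts. At the last time point they summed to 2.82, 2.46 and 2.23 CPM in DMSO. On toyocamycin they then summed to 89.7 to 114 CPM, with 1 or 2 at 0. Of the 7 tested, 7 were called higher and 0 lower, beside 47% and 41.9% of all genes. The arms still overlapped for COL1A1, COL1A2 and PDGFRB. ACTA2, smooth muscle actin, made up most of that sum with 88.1 ± 4.93 CPM. Markers of blood and vessel summed to 0.717 CPM or less in DMSO and to 3.05 to 4.52 CPM on toyocamycin at the last time point. Stomach, liver and squamous markers summed to 12.0 to 170 CPM over the DMSO libraries of all times. At the last time point they summed to 134, 170 and 143 CPM in DMSO and to 11.6 to 11.8 CPM on toyocamycin. They did not move as one. Of the 5 tested at that time, the squamous keratins KRT5 (-3.92) and KRT14 (-5.54) were lower. SOX2 was higher (0 counts in DMSO at that time, 29 to 59 on toyocamycin). ALB (0 or 1 against 4 to 17) and MUC6 (1 or 2 against 2 to 9) were higher too. In replicate 2 of toyocamycin at 10 h these 3 sums were 30.3, 12.9 and 103 CPM.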

How the data were processed

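RNA-seq of YB5 cells was analysed in 17 libraries grouped by their labels. The authors aligned reads to GRCh38 with STAR 2.7.5a and deposited raw counts per gene, with no normalization. They also deposited log2 fold changes and p-values of their own edgeR comparisons, which were not used. Of 19141 genes, 19080 were matched to a symbol of GENCODE (GRCh38), which gave positions and exon lengths. One further count column, headed as replicate 1 of DMSO at 10 h, matched no sample label and was not used (columns not used: 1). The tests at 10 h thus rest on a single DMSO library. Counts were tested in R 4.3.3 with edgeR 4.0.16 (filterByExpr, TMM, quasi-likelihood test, Benjamini-Hochberg adjusted p under 0.1). A fit of 14 libraries served all times but 10 h, and a fit of 17 served 10 h, each with the spread shared between groups and tested on simulated data. CPM used TMM-scaled totals. DESeq2 1.42.0 was an alternative. The labels speak of biological replicates, and separate cultures are not otherwise described. At 2 h the replicate numbers are batches (correlation of deviations 0.307). Permutation tests used scipy 1.17.1.

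The members and lists were chosen with earlier results of these data known. Named were all members, and from each list the called genes with the largest rises and falls at an average log2 CPM of at least 2 (up to 3 of each at the last time point and 2 at 2 h and 10 h). ACTA2, COL1A1, COL1A2, PDGFRB, SOX2, ALB, MUC6, KRT5, KRT14 and GATA5 were named after their values were seen. Some genes of the lists are counted but not reported here by name.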

Additional observations from a re-analysis of the deposited data

Results flagged for a closer look

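The effect of toyocamycin differed between the last time point and 2 h in 6 of the 7 members tested, by a test of that difference itself (edgeR quasi-likelihood test, Benjamini-Hochberg adjusted p). The same test called 38.1% of genes lower and 38% higher. The difference in log2 fold change was 1.20 for CDX2 (adjusted p = 0.00057 with edgeR), -4.01 for HNF4A (edgeR adjusted p = 1.26e-09) and -3.59 for VIL1 (edgeR adjusted p = 4.15e-05). It was 2.69 for CDH17 (edgeR adjusted p = 0.000164), 7.83 for LGALS4 (edgeR adjusted p = 0.000781) and 9.10 for MUC2 (edgeR adjusted p = 0.0029). CDX2 went from -0.59 to 0.61 and VIL1, which did not pass at 2 h, from 0.75 to -2.84. Relative to the mitochondrially encoded genes, the CDX2 difference was 0.25 (edgeR adjusted p = 0.814) and its value at the last time point -0.52. The LGALS4 difference rested on 5 counts in replicate 1 of DMSO at 2 h, and without that library it was 3.71 (edgeR adjusted p = 0.99). The MUC2 difference took in a fitted -4.42 at 2 h, from 2 and 4 counts in DMSO and 0 on toyocamycin. With toyocamycin set to 3 counts, that fall was at least 1.01-fold, so the size of the MUC2 difference is not known. The value for GPA33 was -1.77 and was not called, except without replicate 1 of toyocamycin at 2 h (-2.65, edgeR adjusted p = 0.0622).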

How the results depend on the processing

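HNF4A at 10 h (12 alternatives) and at the last time point (19), and CDH17 at the last time point (19), kept their direction and call. The cause of the changes that follow was not tested unless named. GPA33, LGALS4, MUC2, CDX1 and TFF3 are limited by their few counts. With DESeq2's size factors 0 members were lower at 2 h. With library size alone, 2 members and 17 genes of the 5 lists were higher at 10 h, 2 members lower in DMSO over time (last time point against 2 h) and 2 lower at 24 h. With the mitochondrially encoded genes as the scale, 0 members and 0 list genes were lower and 0 list genes higher at 2 h, 0 members and 6 list genes higher at 10 h, 0 members lower or higher in DMSO over time, 2 lower and 1 higher at 24 h, and 2 higher at 48 h. The log2 fold change was then 0.00 for CDH17 at 10 h, -0.12 for CDH17 at 48 h, -0.52 and -0.17 for CDX2 at the last time point and 24 h, and 0.62 for VIL1 in DMSO over time. With no filter 2 members were lower in DMSO over time. A minimum of 10 counts in every library removed low genes, leaving 0 lower at 2 h, 2 higher at 10 h, 1 lower and 2 higher both at the last time point and in its difference from 2 h, and 2 lower in DMSO over time. An adjusted p under 0.05 gave 0 lower at 2 h and 0 higher at 10 h. Testing against a fold change of 1.5 gave 0 lower at 2 h, 1 higher at 10 h and 0 higher in DMSO over time. At 2 h, 0 members were lower with all 17 libraries in one fit, with batch as a term (VIL1 in DMSO over time 0.07) or with only that time point's libraries and no replicate block. The replicate block at 2 h gave 1 member higher. At the last time point, where numbers do not pair the libraries (correlations -0.105 to 0.043), it gave 2 lower and 3 higher, MUC2 being below its filter, and changed no other call. Leaving out 1 library gave 0 to 1 members lower at 2 h, where the call needs DMSO replicate 1 and toyocamycin replicate 2. It gave 2 to 4 members and 25 to 59 list genes higher at 10 h, and 1 to 2 members lower in DMSO over time. Log2 fold changes ranged from -0.25 to 0.62 for CDH17 and -2.01 to 2.95 for LGALS4 at 2 h, and from -2.53 to 2.43 for LGALS4 in DMSO over time. No fit of 10 h was run without its DMSO library or with a block, since only number 2 is shared.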

Other observations

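SLC26A3, the chloride and bicarbonate exchanger of the colonic surface, was singled out after its values were seen. It had 0 to 5 counts in each of the 8 DMSO libraries. On toyocamycin it had 5 and 9 counts at 2 h, 21 and 40 at 10 h, 41 at 24 h, 80 at 48 h and 97 to 112 at the last time point. It was the single gene of the 5 lists called higher at 2 h (log2 fold change 3.47, edgeR adjusted p = 0.0474), as were 0.518% of all genes. With the DMSO libraries of 2 h set to 3 counts, the log2 fold change was 1.2. SLC26A3 passed the filter on low counts only through toyocamycin libraries.

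Over the 17 libraries, Pearson's r of log2 CPM with HNF4A was -0.90 for CDH17, -0.90 for LGALS4 and 0.61 for VIL1. The libraries share treatment and time and include replicate 2 of toyocamycin at 10 h, so these values only describe the arms. On the 5 lists, 14 of 74 genes were past a log2 fold change of 1 downward and 26 upward at 24 h (27.8% and 29.7% of all genes), and 18 and 38 at 48 h (29.9% and 38.1% of all genes). General epithelial genes had a median of 0.36 at 24 h and -1.61 at 48 h, with 1 library per arm.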
